A study of Rattus norvegicus with 10 samples.

Results

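The genes described here are the nuclear genes for subunits of the mitochondrial respiratory chain and ATP synthase, read in rat liver. They were chosen by symbol: every gene with a probe set of its own whose symbol starts Ndufa, Ndufb, Ndufc, Ndufs, Ndufv, Uqcr, Cox4 to Cox8 or Atp5, or is an Sdh subunit, Cyc1 or Cycs. This gave 87 of 14217 genes, each represented by the brightest of its probe sets, with 10 dimmer probe sets set aside. The symbols brought in 34 subunits of complex I, 4 of complex II, 8 of complex III, 18 genes of complex IV and 16 of complex V. They also brought in 6 complex I assembly factors (Ndufaf genes), which help to build the complex and are not part of it, and 1 pseudogene, Cox6c-ps1. Ndufa4 and Ndufa4l2 were counted with complex IV, where the Ndufa4 protein is now placed. Cycs, cytochrome c, had no probe set that names it alone and is not among the 87. The same holds for Ndufa10, Ndufs5, Uqcrb, Cox7a2, Atp5mc1 and Atp5mc2.

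The study exposed rats to effluent from bulk drug industries for a short time. Each of 10 arrays holds the liver of 1 male rat of the outbred Sprague-Dawley strain, 5 of them controls and 5 exposed. The labels give no dose, route, duration or age. Values are log2 readings of Affymetrix 3' arrays summarised by RMA, which subtracts background and brings the arrays to a common distribution. A reading depends on the probes as well as on the transcript, so readings of different genes give no order of abundance. The number of arrays limits the precision. Array medians lay between 5.43 and 5.49, and pairs of arrays correlated between 0.991 and 0.996 over 31042 probe sets. The label liver was met by the hepatocyte markers, of which 9 of 10 were measured, with albumin (Alb) at 14.99 and Cps1 at 13.54, while the muscle markers Ckm and Acta1 read 4.06 and 3.06.

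The respiratory chain passes electrons from NADH (complex I) and succinate (complex II) through complex III and cytochrome c to oxygen at complex IV, and complex V uses the resulting proton gradient to make ATP. Most subunits are coded in the nucleus and imported, and they must be matched to the few coded in mitochondrial DNA. Liver is rich in mitochondria, and it uses the ATP for gluconeogenesis, urea synthesis and secretion. Several complex IV subunits have a widely expressed form and another that is restricted to heart and skeletal muscle, lung or testis.

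The widely expressed subunits read high in every liver. Leaving out the tissue-restricted forms, 73 subunits of complexes I to V had mean readings of 8.14 to 12.97 with a median of 11.47, where the median over all genes was 6.58. Within complex I the readings ran from 8.49 for Ndufb8 to 12.39 for Ndufa1, both accessory subunits of the membrane arm. The 4 subunits of complex II lay between 11.37 and 12.06, with Sdhb, the iron-sulfur subunit, as the highest. Complex III ran from 10.79 for the core protein Uqcrc1 to 12.69 for Uqcrq. In complex V, Atp5mc3, which codes for the c subunit of the rotating ring, read 12.97. The lowest reading in complex V was 8.45 for Atp5if1, the inhibitor protein that blocks ATP hydrolysis and is no subunit of the working enzyme. Atp5if1 and Cox7a2l, described below, are counted among the 73. The assembly factors read 6.59 to 8.97.

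In complex IV the isoform families split into high and low readings. Cox4i1, the widely expressed form of subunit 4, read 12.79, and Cox4i2, the form known from lung, read 4.42. Cox6a1 and Cox6b1 read 11.83 and 11.86, while Cox6a2, of heart and muscle, and Cox6b2, of testis, read 4.23 and 3.80. Cox8a read 12.15 and the heart and muscle form Cox8b 4.11. Cox7a1, also of heart and muscle, read 4.75, and Cox7a2l, which takes part in joining complexes III and IV, read 10.17. Ndufa4 read 12.71 and Ndufa4l2, known as a hypoxia-induced form and counted here with the tissue-restricted ones, 5.45. With Cox7b2 at 3.32, the 7 tissue-restricted forms read 3.32 to 5.45, below the median gene, and whether any of them was above the background of the array was not tested. Cox6c-ps1 read 5.48.

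**Figure D1:**
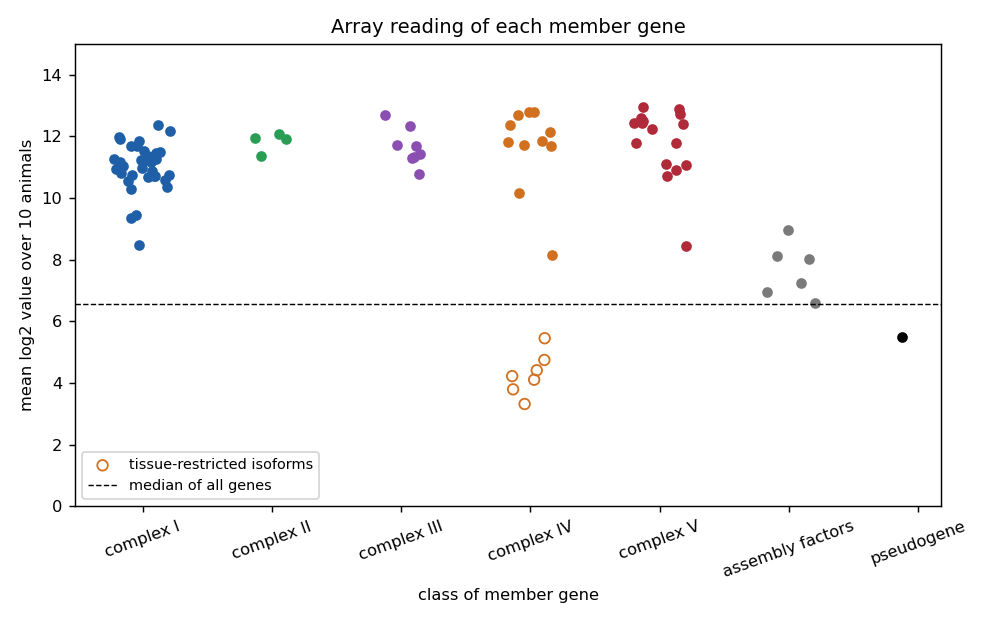
Mean log2 reading over 10 animals (vertical axis) of each of the 87 genes by class (horizontal axis), with open circles for tissue-restricted forms and a dashed line at the median of all genes, 6.58. The 73 widely expressed subunits lie between 8.14 and 12.97 and the 7 tissue-restricted forms between 3.32 and 5.45.

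The comparison of exposed with control livers asks whether the effluent altered expression in liver. None of the 87 genes passed the test between groups, and the differences were small for nearly all of them. Cox5a, a nuclear subunit on the matrix side of complex IV, differed most, at -0.19 ± 0.10 (SE) on the log2 scale, and Cox4i2 at 0.14 ± 0.09 was the largest difference the other way. Limma called 0 of 87 genes at an adjusted p of 0.05, and 0 of 31042 probe sets (0.0%). At an unadjusted p under 0.05 limma gave 0 of 87 genes, where it gave 739 of 14217 genes (5.2%) and 1695 of 31042 probe sets (5.46%). Adjusted p values of the 87 genes lay between 0.879 and 0.998.

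The 95% intervals from the main fit give a range for the difference of each gene taken alone. They pool the SD of both groups and are not adjusted for the number of genes. For 80 of 87 genes the whole interval lay within a 1.2-fold change either way, as it did for 59.0% of all genes, and for all 87 it lay within 1.5-fold, as for 96.6% of all genes. The 7 genes with wider intervals were Cox5a, Cox4i2, Ndufb8 and the assembly factors Ndufaf1, Ndufaf4, Ndufaf5 and Ndufaf8.

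**Figure D2:**
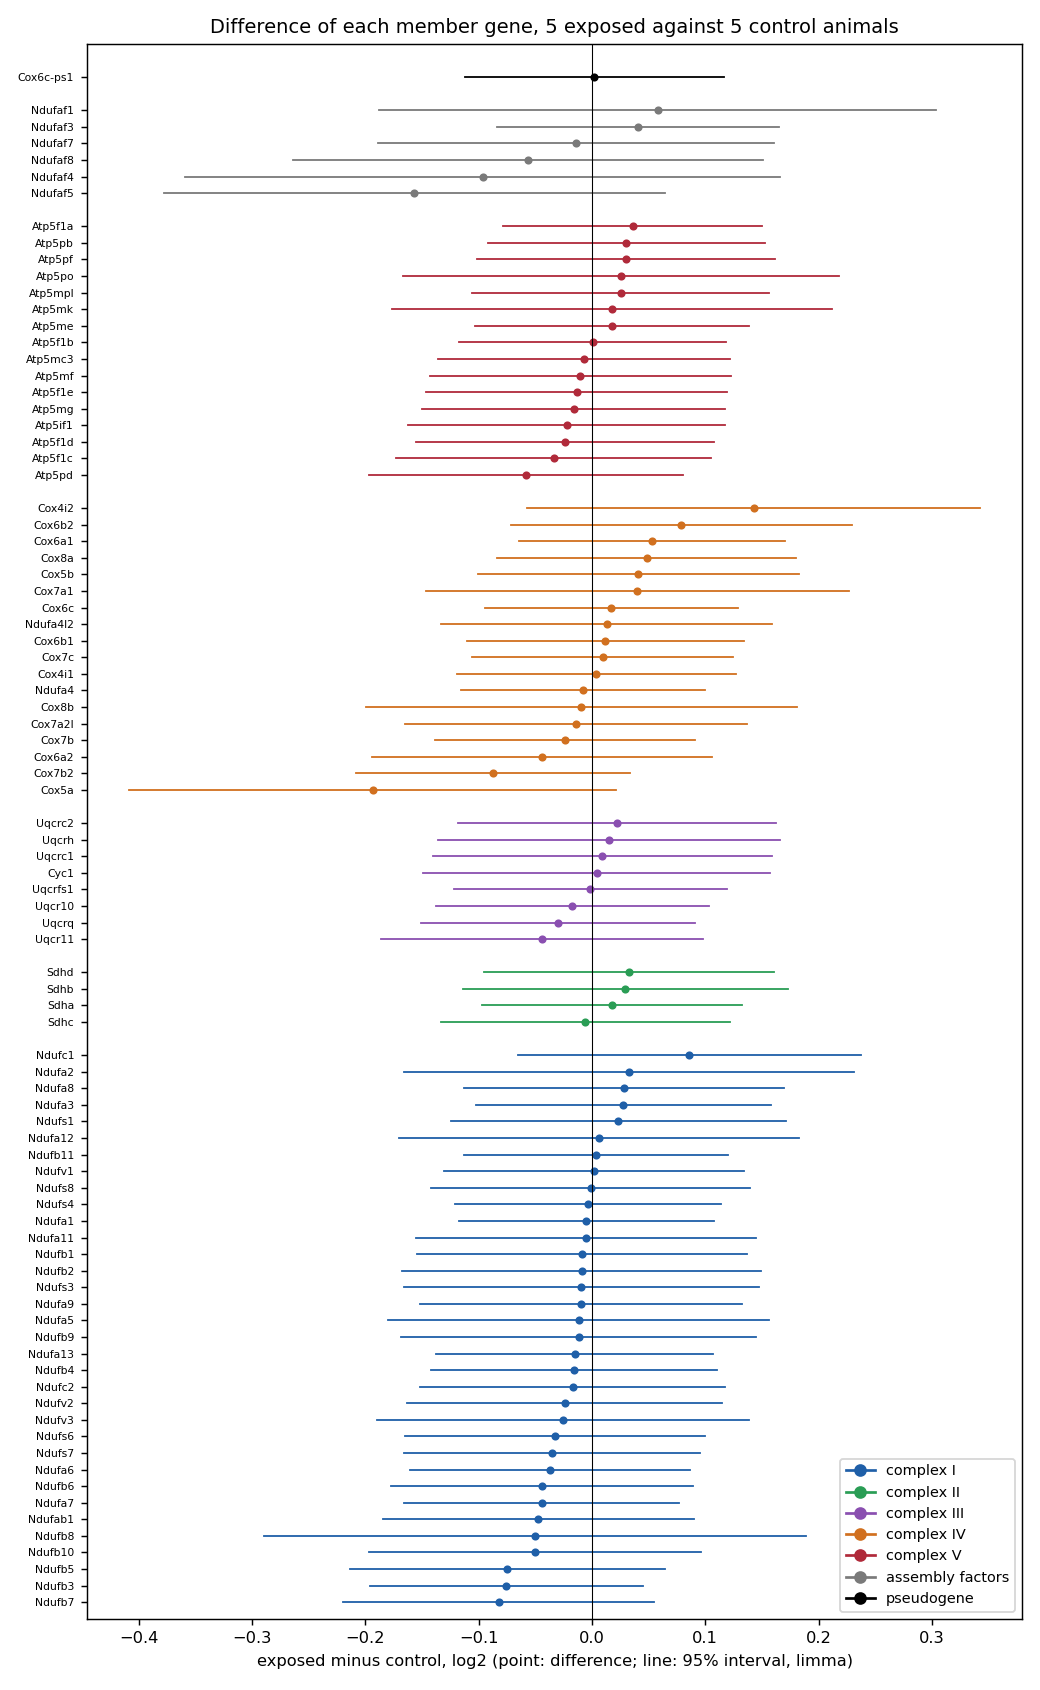
Exposed minus control difference on the log2 scale (horizontal axis, point) with its 95% interval from limma (line) for each of the 87 genes, grouped by class, 5 animals a group. Every interval holds 0, and Cox5a at -0.19 and Ndufaf5 at -0.16 lie farthest to the left.

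By complex, complex I had 26 of 34 subunits lower in exposed livers with a median difference of -0.012. This count moved both ways with the setting. It was 33 of 34 with the ratio of 3' to 5' control probe sets, a measure of RNA quality, as a covariate (median -0.051), 29 of 34 after centring arrays on their medians and 15 of 34 (median 0.0013) after quantile normalization. It was 32 of 34 without control animal 5, 11 without control animal 1, 14 without control animal 3 and 17 without exposed animal 1. Over all 87 genes 50 were lower (71 with the RNA quality covariate, 67 after centring, 34 after quantile normalization, 69 without control animal 5 and 25 without control animal 1), with a median difference of -0.0069, where 50.9% of all genes were lower with a median of -0.0021. Among 3501 genes in the same range of readings as the widely expressed subunits, 65.3% were lower. These genes are not matched for level, with a median reading of 9.33 against 11.47. The shares of 50.9% and 65.3% are from the main fit and are not given for any other setting. Counts under the other settings can therefore not be set against them. Centring moved the difference of every gene by the same amount, so its higher counts are no trait of the members. The median difference was 0.024 for complex II with 1 of 4 lower and 0.0013 for complex III with 4 of 8 lower. It was 0.011 for complex IV with 7 of 18 lower and -0.0031 for complex V with 8 of 16 lower. With the RNA quality covariate 8 of 8 genes of complex III and 13 of 16 of complex V were lower. Centring turned the median of complex III to -0.022 and of complex IV to -0.012, and quantile normalization turned that of complex V to 0.011.

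Single genes were followed in each animal. Cox5a read 8.41, 8.22, 8.47, 7.93 and 8.17 in control animals 1 to 5 and 8.13, 8.07, 8.17, 7.97 and 7.89 in exposed animals 1 to 5. The groups overlapped, control animals 1, 2 and 3 reading above every exposed animal. The difference of -0.19 had a 95% interval of -0.41 to 0.02, with a limma unadjusted p of 0.073 and an adjusted p of 0.879. With the replicate number as a block the unadjusted limma p was 0.027, and without control animal 4 the difference was -0.27 with an unadjusted limma p of 0.0083. A brighter probe set, which the annotation gives to Cox5a together with LOC100361008, read 12.29 and differed by -0.014 ± 0.058 (SE). It was left out by the rule because it names more than 1 gene.

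Cox4i2 read 4.39, 4.39, 4.31, 4.31 and 4.31 in controls and 4.66, 4.58, 4.26, 4.25 and 4.69 in exposed animals. Exposed animals 1, 2 and 5 were above all controls and exposed animals 3 and 4 below them. The difference of 0.14 had an interval of -0.06 to 0.34 (limma adjusted p 0.891), at a reading below that of the median gene. Cox7b2, the form known from testis, was the 1 gene of 87 whose groups did not overlap, as was the case for 0.788% of all genes. It read 3.317 to 3.497 in controls and 3.23 to 3.31 in exposed animals, a gap at the foot of the scale, with a difference of -0.087 ± 0.056 (SE; limma adjusted p 0.891).

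In complex I the smallest p values belonged to Ndufb3 and Ndufb7, accessory subunits of the membrane arm. Ndufb3 had a control mean of 12.03 ± 0.07 and an exposed mean of 11.95 ± 0.04 (SD, n = 5 per group), which differ by -0.075 ± 0.056 (SE), and Ndufb7 differed by -0.082 ± 0.063 (limma adjusted p 0.899 and 0.905). Ndufc1 had the largest difference the other way, 0.086 ± 0.070. In complex II, Sdhd, a membrane anchor, differed by 0.033 ± 0.059 and Sdhb by 0.030 ± 0.066. In complex III, Uqcr11 differed by -0.044 ± 0.066 and Uqcrq by -0.030 ± 0.056. In complex V, Atp5pd, of the peripheral stalk, differed by -0.058 ± 0.064 and Atp5f1a, the alpha subunit of the catalytic head, by 0.036 ± 0.053. Among the assembly factors, Ndufaf5 differed by -0.16 ± 0.10 and Ndufaf4 by -0.096 ± 0.121. None of these differences exceeded the spread between animals by the test.

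The widely expressed subunits varied little between animals of a group. The pooled SD within groups had a median of 0.078 over these 73 genes, against 0.127 over all genes and 0.116 over the genes in the same range of readings. The genes in that range are not matched for level, as their median reading was 9.33, against 11.47 for the 73. Over all 87 genes the median SD was 0.083. By complex the medians were 0.086 (I), 0.069 (II), 0.089 (III), 0.083 (IV) and 0.077 (V), and 0.172 for the assembly factors. Without its tissue-restricted forms complex IV had a median of 0.061, the smallest of the complexes, and those forms alone had 0.100. Ndufa4 had the smallest SD, 0.029, with readings of 12.67 to 12.75 in controls and 12.70 to 12.71 in exposed animals. Other tight genes were Cox6c at 0.041, Ndufa1 at 0.042, Sdha, the flavoprotein of complex II, at 0.046, and Atp5f1a at 0.047. The widest of the 73 subunits was Ndufb8 at 0.197, with control animal 3 at 8.93 and the other control animals at 8.29 to 8.54. The largest SD of the 87 genes belonged to Ndufaf4, 0.221. A probe set left out by the rule, which names Ndufa10 and Ndufa10l1, had an SD of 0.319.

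Most of the spread that was present lay among the controls. The median SD was 0.102 among control animals and 0.045 among exposed animals over the 87 genes, where it was 0.126 and 0.116 over all genes. The SD was larger among controls for 76 of 87 genes (87.4%) and for 56.3% of all genes. It was larger for 62.8% of genes in the same range of readings, a set not matched for level. The count was 34 of 34 in complex I, 3 of 4 in complex II, 8 of 8 in complex III, 11 of 18 in complex IV and 15 of 16 in complex V. The 7 tissue-restricted forms went the other way, with 2 of 7. Without any single animal the count stayed between 70 and 78 of 87. Both the count and the contrast of spreads were chosen after the values were seen and have no test.

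**Figure D3:**
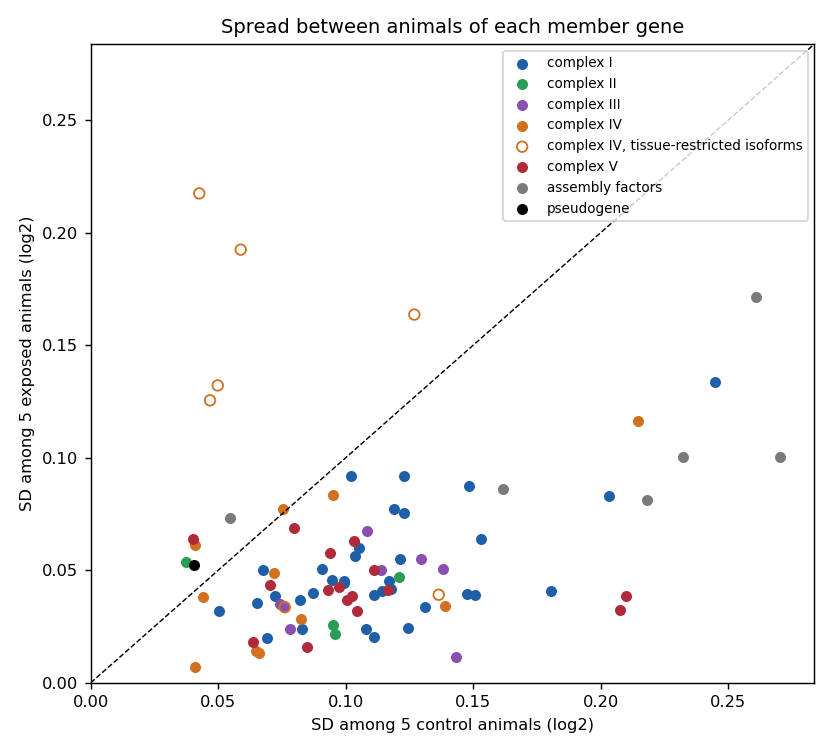
SD among 5 control animals (horizontal axis) against SD among 5 exposed animals (vertical axis) for each gene, log2 scale, with a dashed line where they are equal. Of 87 genes 76 lie below the line, and 5 of the 7 tissue-restricted forms (open circles) lie above it.

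Single genes of complex V show this contrast. Atp5po, a subunit of the stalk that holds the catalytic head still, read 11.99, 11.77, 11.96, 11.53 and 11.60 in control animals 1 to 5 and 11.75, 11.80, 11.80, 11.84 and 11.79 in exposed animals. Controls 1 and 3 stood above all exposed animals and controls 4 and 5 below them. Atp5mk, a small membrane subunit, read 12.00, 11.87, 11.91, 11.72 and 11.46 in controls and 11.75 to 11.85 in exposed animals. Group means were close for both genes, with differences of 0.025 ± 0.089 and 0.018 ± 0.090 (SE). In complex III, Cyc1, the cytochrome c1 subunit, had an SD of 0.138 among controls and 0.050 among exposed animals.

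The same animals were high or low for most subunits. The mean over the 87 genes, each centred on its own mean over the 10 animals, was 0.105, -0.0059, 0.080, -0.068 and -0.092 in control animals 1 to 5 and -0.020, -0.0045, 0.0022, 0.0018 and 0.0015 in exposed animals 1 to 5. Control animals 1 and 3 were high and control animals 4 and 5 low, and the exposed animals lay close together between them. The SD of this mean was 0.087 among controls and 0.0093 among exposed animals. Complex I showed the pattern at 0.132, -0.031, 0.101, -0.070 and -0.092 in controls, and complex V at 0.102, 0.0069, 0.075, -0.071 and -0.112. With group means removed, 1 principal component held 57.6% of the variance of the 87 genes and the next 10.5%. The loading of each exposed animal on the first was between -0.062 and 0.045, and those of control animals 1, 3, 4 and 5 were 0.52, 0.50, -0.42 and -0.53.

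**Figure D4:**
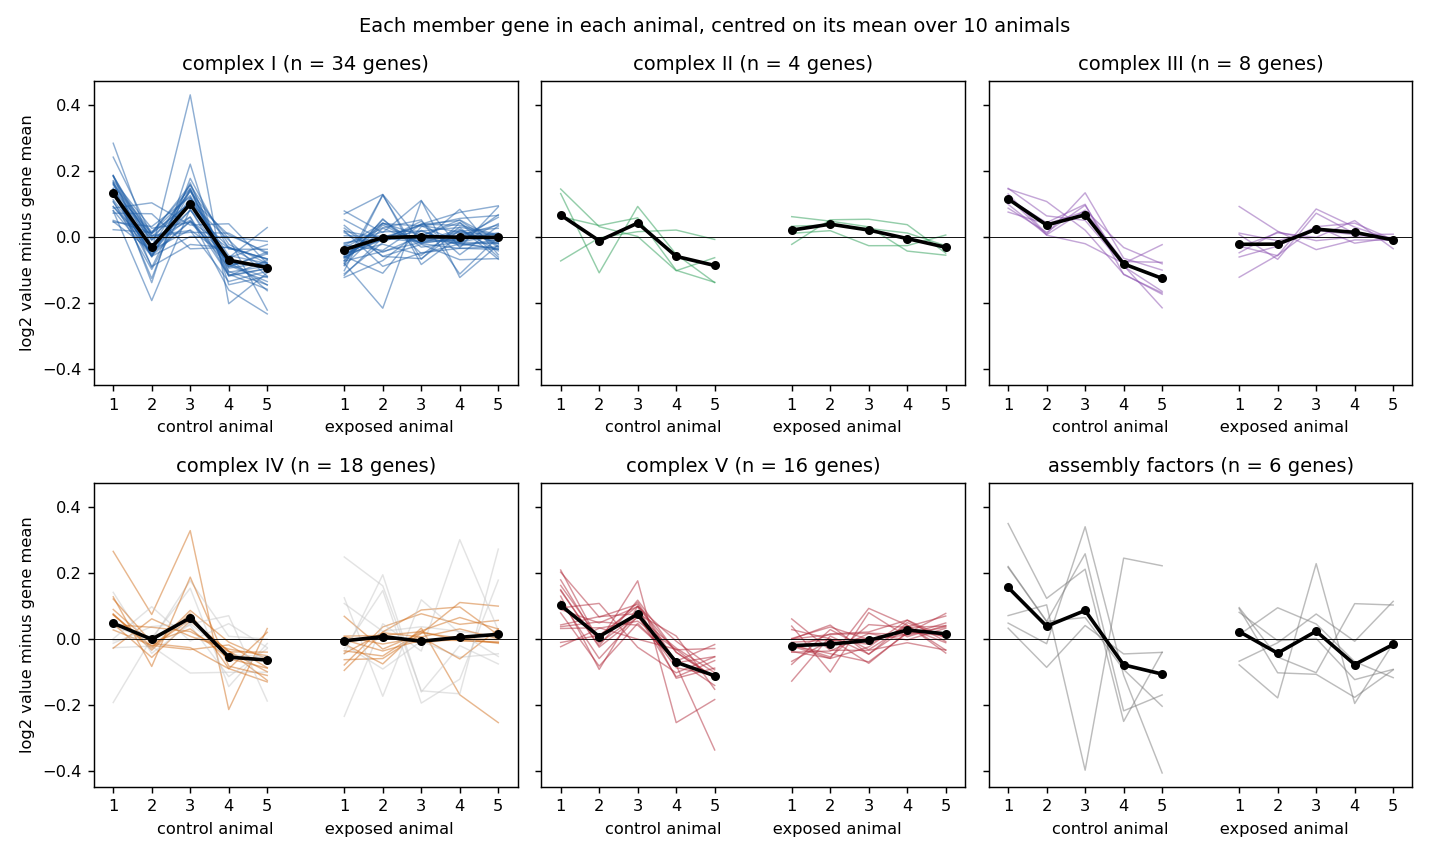
Log2 reading minus the gene's mean over 10 animals (vertical axis) in each control and exposed animal (horizontal axis, numbered as in the labels) for each gene but the pseudogene, with the class mean in black and tissue-restricted forms in light grey; lines join the values of 1 gene and imply no order of animals. In complex I the control means run from -0.092 to 0.132 and the exposed means from -0.038 to 0.0017.

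Correlations between genes across the 10 animals, with group means removed, describe how tightly the members moved together. These values share arrays, normalization and animals, and no p is given. Over 3741 pairs of the 87 genes the median Pearson r was 0.58, against 0.00030 over pairs of all genes. It was 0.037 over pairs of genes in the same range of readings, which are not matched for level. Within complexes the median was 0.69 (I), 0.27 (II), 0.77 (III), 0.23 (IV) and 0.64 (V), and 0.58 for complex IV without its tissue-restricted forms. Between complexes it was 0.69 for I with III, 0.65 for I with V, 0.71 for III with V and 0.47 for I with IV. In controls alone (n = 5) the median over the 87 genes was 0.73, and in exposed animals alone (n = 5) it was 0.044. Leaving out single animals gave 0.47 to 0.64 over the 87 genes.

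**Figure D5:**
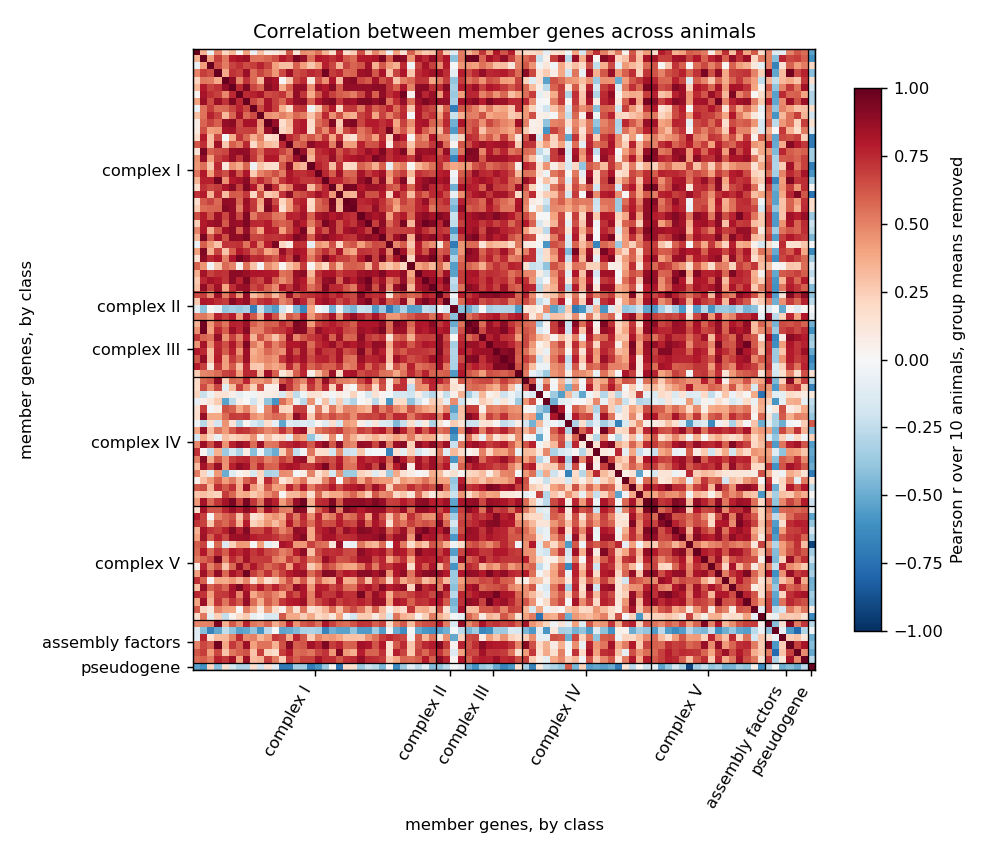
Pearson r between each pair of the 87 genes (both axes, ordered by class) over 10 animals with group means removed, from -1 (blue) to 1 (red). Complexes I, III and V are mostly red within and between them, with medians of 0.64 to 0.77 within them, crossed by pale or blue lines at Sdha, the tissue-restricted forms, Ndufaf4 and the pseudogene.

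Each gene was also set against the mean of the other 86, again with group means removed. The median r was 0.81, and 73 of 87 genes had r above 0.5, including 33 of 34 in complex I, 8 of 8 in complex III and 15 of 16 in complex V. The highest were Ndufb6 at 0.98 in complex I, Atp5po at 0.97 and Ndufb2 at 0.96. Ndufb6 read 11.19, 11.04, 11.13, 10.95 and 10.95 in controls and 10.97 to 11.03 in exposed animals. The 5 genes below 0 were Ndufaf4 (-0.59), Cox6c-ps1 (-0.43), Sdha (-0.37), Cox6a2 (-0.081) and Cox4i2 (-0.0025). Sdha read 11.30, 11.37, 11.39, 11.39 and 11.36 in controls and 11.43, 11.42, 11.40, 11.33 and 11.32 in exposed animals. It was alone among the widely expressed subunits in being below 0, and without it the other 3 subunits of complex II had a median pairwise r of 0.70. Ndufaf4 read 8.20, 8.23, 7.73, 8.37 and 8.35 in controls, so control animal 3, high for the subunits, was low for it.

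Promoter sequences from RefSeq (GRCr8, 250 bases before to 50 after the start of the gene) were matched by gene number for 78 of 87 genes, and letters known from the binding sites of factors that act on mitochondrial genes were searched on both strands. Their part in the shared variation was not tested. The letters bound by NRF1, GCGCA and GCGC with any 1 base between them, were in 15 of 78 promoters (19.2%), where 4.71% of all 27457 promoters of this length held them. The letters CCGGAAG, of the ETS kind bound by GABP, were in 22 of 78 (28.2%, all promoters 9.22%), and AAGATGGC, bound by YY1, in 17 of 78 (21.8%, all promoters 3.44%). At least 1 of the 3 was in 44 of 78 promoters (56.4%), in 15.5% of all promoters and in 1 of 6 promoters of tissue-restricted forms. By complex the count was 18 of 32 (I), 4 of 4 (II), 4 of 6 (III), 4 of 15 (IV) and 10 of 15 (V). The NRF1 letters were in 0 of 15 promoters of complex IV. These 15 include the 6 promoters of tissue-restricted forms. All promoters include those of genes that read low in liver. For comparison, GGGCGG, bound by Sp1, was in 43.6% of these promoters and 34.9% of all, and TATAAA in 10.3% and 14.3%. The NRF1 letters read the same on both strands where the base between is T, and the GABP letters end and the YY1 letters start with AAG, so that their matches can overlap. A match is not a site in use.

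Below are the promoters of the gene of complexes I, III, IV and V that followed the other members most closely, and of Sdha, which did not follow them, in lower case with matches to the NRF1, GABP and YY1 letters in capitals. Ndufb6 lies at chr5:60206103-60206402 on the minus strand, Uqcrq at chr10:38089929-38090228 (minus), Cox4i1 at chr19:65630133-65630432 (plus), Atp5po at chr11:44657434-44657733 (minus) and Sdha at chr1:30764303-30764602 (plus).
Ndufb6: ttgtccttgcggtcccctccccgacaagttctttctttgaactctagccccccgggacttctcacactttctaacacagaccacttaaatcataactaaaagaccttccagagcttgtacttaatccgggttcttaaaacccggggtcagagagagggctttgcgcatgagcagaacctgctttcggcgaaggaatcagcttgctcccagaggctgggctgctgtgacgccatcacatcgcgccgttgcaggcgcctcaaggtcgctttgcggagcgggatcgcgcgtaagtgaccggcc
Uqcrq: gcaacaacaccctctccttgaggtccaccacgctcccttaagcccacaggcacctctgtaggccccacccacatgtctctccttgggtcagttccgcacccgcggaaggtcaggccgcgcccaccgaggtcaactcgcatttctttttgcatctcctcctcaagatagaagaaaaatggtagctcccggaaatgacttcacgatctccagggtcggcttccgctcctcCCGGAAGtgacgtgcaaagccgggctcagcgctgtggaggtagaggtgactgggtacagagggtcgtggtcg
Cox4i1: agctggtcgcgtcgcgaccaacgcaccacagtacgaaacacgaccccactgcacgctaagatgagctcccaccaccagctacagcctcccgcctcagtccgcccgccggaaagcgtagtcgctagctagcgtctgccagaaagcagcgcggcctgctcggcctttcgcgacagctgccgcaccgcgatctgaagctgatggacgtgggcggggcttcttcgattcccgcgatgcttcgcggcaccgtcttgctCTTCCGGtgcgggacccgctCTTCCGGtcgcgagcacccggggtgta
Atp5po: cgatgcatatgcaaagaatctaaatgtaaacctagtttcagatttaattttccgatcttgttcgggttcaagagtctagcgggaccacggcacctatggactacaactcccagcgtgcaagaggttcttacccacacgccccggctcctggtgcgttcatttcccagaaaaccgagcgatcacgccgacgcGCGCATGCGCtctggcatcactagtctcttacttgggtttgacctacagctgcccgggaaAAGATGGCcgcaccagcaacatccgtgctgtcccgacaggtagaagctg
Sdha: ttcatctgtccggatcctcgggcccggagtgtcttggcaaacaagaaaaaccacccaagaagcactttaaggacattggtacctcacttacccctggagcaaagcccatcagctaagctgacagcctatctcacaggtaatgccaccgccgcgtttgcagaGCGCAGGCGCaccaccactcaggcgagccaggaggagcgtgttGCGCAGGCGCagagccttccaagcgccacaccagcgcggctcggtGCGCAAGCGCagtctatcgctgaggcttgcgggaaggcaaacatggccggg
The promoter of Ndufb6, the gene with the highest r, held none of the 3, and Sdha held 3 matches to the NRF1 letters. Uqcrq held 1 match to the GABP letters and Cox4i1 2, on the minus strand. Atp5po held the NRF1 letters, which read the same on both strands there, and the YY1 letters.

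Genes outside the rule had like profiles. The 5 genes outside the rule that followed the mean of the 87 most closely over the 10 animals were Tmem256 (r 0.98), the mitochondrial ribosomal protein gene Mrpl37 (0.98), Dtymk (0.97), which codes for thymidylate kinase, Itgb3bp (0.97) and Nme2 (0.97), a nucleoside diphosphate kinase. Mrpl37 read 9.97, 9.71, 9.91, 9.48 and 9.48 in controls and 9.55 to 9.64 in exposed animals. In all, 101 genes had r above 0.9, of which 15 were among the 87.

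Other genes of mitochondria and ribosomes were read from lists. Mitochondrial ribosomal proteins had a larger SD among controls for 60 of 73 genes, with a median pairwise r of 0.63 in controls and 0.057 in exposed animals. Their mean was 0.174, -0.017, 0.050, -0.084 and -0.027 in control animals 1 to 5. Cytosolic ribosomal proteins had a larger SD among controls for 35 of 45 genes, with a median pairwise r of 0.85 in controls and 0.57 in exposed animals. Their mean was 0.1095, -0.010, 0.086, -0.049 and -0.148 in control animals 1 to 5, and -0.079 to 0.042 in exposed animals. Control animals 1 and 3 were thus high and 4 and 5 low for this list too, which is not mitochondrial. Tricarboxylic acid cycle enzymes showed the larger SD for 10 of 11 genes, with a lower pairwise r of 0.29 in controls. Assembly factors outside the rule had 20 of 33, regulators of mitochondrial biogenesis 11 of 13, carriers and dehydrogenases that feed the chain 15 of 17 and antioxidant genes of mitochondria 6 of 10. Their median pairwise r in controls was 0.18, 0.0785, 0.20 and 0.21, in that order. Of all genes 56.3% had the larger SD among controls. The median SD was yet larger among exposed animals for the assembly factors (0.092 in controls, 0.097 in exposed) and the regulators (0.127 and 0.139). The mean of the regulators was -0.028, -0.016, -0.081, 0.075 and 0.083 in control animals 1 to 5. It was below 0 in control animals 1 and 3 and above 0 in 4 and 5, where the subunits were the reverse. The hepatocyte marker mean had the same signs, at -0.069, -0.0023, 0.079 and 0.074 in control animals 1, 3, 4 and 5. So did the adipocyte marker mean, at -0.101, -0.014, 0.089 and 0.077. A link between the regulators and the subunits was not tested.

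None of these lists held a gene that limma called between groups. At an unadjusted p under 0.05, which 5.2% of all genes met, limma gave 3 of 33 assembly factors, all lower in exposed livers, 2 of 73 mitochondrial ribosomal proteins, both lower, 1 of 17 carriers and 1 of 45 cytosolic ribosomal proteins, both higher, and 0 of the 11 cycle enzymes, 13 regulators and 10 antioxidant genes. Bcs1l, which inserts the iron-sulfur protein into complex III, differed by -0.18 ± 0.07 (SE) and Uqcc1, also of complex III assembly, by 0.088 ± 0.071. Slc25a10, the dicarboxylate carrier, differed by 0.22 ± 0.08 and the outer membrane channel Vdac1 by -0.073 ± 0.059. Ppargc1a, the coactivator PGC-1alpha, differed by 0.16 ± 0.10 and Tfam, which packs and transcribes mitochondrial DNA, by -0.083 ± 0.063. Mrpl38 and Mrpl15 differed by -0.18 ± 0.08 and 0.14 ± 0.06, Rpl28 and Rps13 by 0.20 ± 0.08 and -0.087 ± 0.077. Ogdh and Idh3b of the cycle differed by -0.090 ± 0.067 and 0.065 ± 0.060, and Gpx4 and Ucp2 by -0.15 ± 0.07 and 0.077 ± 0.114. Adjusted p from limma ran from 0.879 to 0.947 over these 14 genes.

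Measures of RNA quality and of other cells differed between the same animals. The log2 ratio of 3' to 5' control probe sets for Gapdh and beta-actin was 0.508, 0.578, 0.624, 0.626 and 0.735 in control animals 1 to 5 and 0.494 to 0.604 in exposed animals. Control animal 5, lowest for the subunits, had the highest ratio, and control animal 1, highest for the subunits, had the lowest ratio of its group. With this ratio as a covariate the median pairwise r over the 87 genes was 0.46 instead of 0.58. The 8 measured Kupffer cell markers had a mean over centred genes of -0.889 to 0.343 in controls and -0.541 to 0.407 in exposed animals, lowest in control animal 5 and in exposed animal 3. Exposed animal 3 stood at 0.0022 for the subunits, near the other exposed animals. The same mean of 9 hepatocyte markers lay between -0.069 and 0.079 in controls, with control animals 4 and 5 at 0.079 and 0.074, and between -0.076 and 0.039 in exposed animals. The mean over 7 lymphocyte markers was 0.116, -0.042, 0.016, -0.250 and -0.152 in control animals 1 to 5 and lay between -0.157 and 0.175 in exposed animals. The mean over 6 endothelial markers was 0.036, 0.058, 0.144, -0.076 and -0.226 in controls and between -0.148 and 0.193 in exposed animals. Both were below 0 in control animals 4 and 5, as the subunits were, and both were low in exposed animal 3. The Kupffer mean was also below 0 in both, at -0.304 and -0.889. The means of the stellate, bile duct, muscle, erythroid, adipocyte and pancreas lists were not below 0 in both. In control animals 4 and 5 the erythroid mean was -0.387 and 0.562 and the adipocyte mean 0.089 and 0.077. The part of RNA quality and cell composition in the shared pattern was not tested beyond these values, and in whole tissue fewer cells of a type and less RNA per cell cannot be told apart.

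Other probe sets bore on a few genes. A pair of probe sets read Sdhd at 11.96 and 10.92 with an r of 0.90 across animals, and another pair read Uqcrc2 at 11.42 and 9.07 with an r of 0.96, with group means removed. The second probe set of Ndufa7 read 4.42 against 11.16 and had an r of -0.70 with the first. For Atp5if1, the 2 dimmer probe sets differed by 0.20 ± 0.09 and 0.13 ± 0.12 (SE) between groups, where the brightest differed by -0.022 ± 0.065. The first of these had an unadjusted limma p of 0.046 and an adjusted p of 0.879. A further 9 probe sets name a gene of the rule together with another gene or pseudogene. They differed by -0.049 to 0.065, and limma gave 0 of them an unadjusted p under 0.05.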

How the data were processed

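The deposited log2 expression values per probe set are the authors' RMA summaries; the submitters' processing notes name R 2.8.1. Their range of 2.19 to 15.00 shows the log2 scale. The version of the probe annotation behind them is not given in the sources used here. The file lists 31099 probe sets, and 57 that are Affymetrix controls did not enter the tests. The platform annotation names 1 gene for 20826 probe sets. All 87 members matched a RefSeq gene number (GRCr8).

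Groups were compared with limma 3.58.1 (a two-sided moderated test from lmFit and eBayes, R 4.3.3) on all 31042 probe sets, with Benjamini-Hochberg adjustment over all of them and a threshold of 0.05. The test was also run on simulated data with independent genes and the same SD in both groups. That setting does not cover the unequal spread of the groups or the correlated genes seen here. Spread and correlation were computed in Python 3.11.15 after removal of group means and have no test. The members and lists were chosen with earlier results of these data known.

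All members were counted. The named ones were, per complex, the 2 with the smallest p, the brightest, the tightest and the widest, plus isoform families. Genes described outside this rule, such as Ndufb6, Ndufb2, Atp5po, Ndufc1, Cox6c and Atp5if1, were chosen after their values were seen. From each pathway list the gene with the smallest p in each direction was named.

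Alternatives were a filter on low values (only probe sets brighter on average than the median one), centring on array medians, quantile normalization, the mean of all probe sets of a gene, the replicate number as a block, array weights, a robust prior with trend, the 3' to 5' ratio as covariate, and omission of each animal.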

Additional observations from a re-analysis of the deposited data

Results flagged for a closer look

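In 9 of 188 groups of 5 animals (each of the 87 genes, each class mean and the mean of all, in controls and in exposed animals) 1 animal stood apart from the rest, with a gap to the next animal of over 0.71 of the group's range (Dixon's 95% critical value for 5 samples). Chance gives about 1 in 20. Exposed animal 1 read 8.508 for Atp5if1 (others 8.41 to 8.44), 11.75 for Cox6a1 (11.86 to 11.90), 3.903 for Cox6b2 (3.80 to 3.83) and 11.35 for Ndufv2 (11.47 to 11.50), and its mean over complex I was -0.03838 (others -0.0015 to 0.0017). Exposed animal 2 read 12.76 for Cox7b (12.79 to 12.79) and exposed animal 3 read 12.89 for Atp5mc3 (12.97 to 12.997). Control animal 3 read 3.497 for Cox7b2 (3.32 to 3.36) and 7.728 for Ndufaf4 (8.20 to 8.37). The mean of complex I in exposed animal 1 lies below its group by less than the range of the controls.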

How the results depend on the processing

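The count of 0 called genes held under every alternative run, and the median difference ran from -0.043 to 0.020. The spread (median SD 0.073 to 0.089) and the shared variation (median pairwise r 0.46 to 0.66) were not recomputed with array weights or the robust prior with trend. Genes at an unadjusted p under 0.05 numbered 1 with the replicate block (Cox5a), 1 with the RNA quality covariate (Ndufaf5) and 0 to 2 without single animals: 1 without control animal 3 (Ndufaf4), 2 without control animal 4 (Cox5a and Ndufaf5) and 1 each without exposed animals 3 and 4 (Cox4i2). Same-numbered animals deviated with correlations of -0.070 to 0.094, so the numbers share no pairing that the data show. Of 34 named differences, 18 kept their sign under every alternative, and the largest that did not was -0.051. With centring the difference was -0.005 for Atp5mk, -0.0188 for Cox4i1, -0.0109 for Cox6b1, -0.0206 for Cox6c-ps1, -0.0186 for Cyc1, -0.0099 for Ndufa4l2 and -0.0051 for Sdha. With quantile normalization it was -0.0169 for Cox6c-ps1, 0.014 for Cox7a2l, 0.0089 for Ndufa1, 0.001 for Ndufa4 and -0.0108 for Ndufa4l2. With array weights it was 0.0097 for Cox8b, -0.0064 for Cyc1, 0.0007 for Ndufa1 and -0.0011 for Ndufa4l2. With the RNA quality covariate it was -0.0727 for Atp5mk, -0.0267 for Cox4i1, -0.0175 for Cox6b1, -0.057 for Cyc1 and -0.0015 for Ndufa4l2. Centring subtracts 1 value from all genes of an array, so it moved all differences by the same amount. For the other settings the cause was not tested. Without single animals the range was -0.0336 to 0.019 for Atp5mc3, -0.0441 to 0.0305 for Cox7a2l, -0.0577 to 0.0384 for Cox8b, -0.0201 to 0.0147 for Ndufa1, -0.019 to 0.0019 for Ndufa4, -0.0149 to 0.0191 for Cox6c-ps1, -0.1073 to 0.0512 for Ndufb8, -0.0385 to 0.0001 for Uqcr10, -0.0178 to 0.0347 for Cox4i1, -0.0387 to 0.0412 for Cyc1, -0.0644 to 0.0706 for Atp5mk, -0.0117 to 0.0316 for Cox6b1, -0.0013 to 0.0662 for Sdhb, -0.0167 to 0.0581 for Ndufa4l2 and -0.0303 to 0.1038 for Cox7a1. Which of the dim genes lay above background is unknown, since the values carry no detection calls.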
